A study of Mus musculus with 16 samples.

Results

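RNA was sequenced from the livers of WT mice given a nuclear receptor agonist and of WT mice given the vehicle DMSO, with 2 livers in each group. These 4 libraries are 4 of the 16 in the series. They were chosen by their column names, which pair WT livers marked TC with WT livers marked DMSO, both at 30 days. The question is which liver genes differ in abundance after the agonist when Arid1a is intact.

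The agonist livers are WT, given an agonist that the labels spell NR1L3 agonist and the columns abbreviate as TC. The vehicle livers are WT, given DMSO. All mice of the series had received tamoxifen, and times are counted from that injection. The titles of the agonist livers give 9 days, while their time field and column names give 30 days, and they are treated here as 30-day livers. Agonist livers and vehicle livers labelled Arid1a KO, also 2 each and also at 30 days, are used for comparison, and so are 2 WT vehicle livers of 9 days. The dose, the route, the time between the agonist and collection, the driver of the recombinase, and the strain, age and sex of the mice are unknown here. Hepatocytes are the cell type in the labels but liver tissue is what the series describes, so each value is a tissue mean. In such bulk samples fewer cells of a type and less RNA per cell cannot be told apart.

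NR1L3 is not the symbol of a receptor. The nearest spellings are NR1I3, the constitutive androstane receptor (CAR), and NR1H3, the liver X receptor alpha (LXR alpha). CAR is a xenobiotic sensor of hepatocytes. It pairs with the retinoid X receptor on paired sites in DNA and, with its close relative PXR, switches on cytochrome P450 enzymes of the 2b, 2c and 3a families, the conjugating enzymes that act after them and the transporters that export the products. In rodents, CAR agonists are also known to enlarge the liver and to start hepatocyte division. LXR alpha is an oxysterol sensor that switches on cholesterol efflux genes such as Abca1 and the lipogenic regulator Srebf1. Genes of both programmes were therefore followed.

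The WT agonist libraries held 9375068 and 27864009 counts, and the WT vehicle libraries 11421709 and 24333192 counts, within a series range of 7569779 to 47768610. In both groups replicate 1 is the shallower library. Levels are given as CPM, a gene's counts relative to the TMM-scaled total of its library, replicate 1 before replicate 2. CPM are not divided by gene length, so levels are compared between livers and not between genes. The 8 hepatocyte markers were present in every library, with a summed level of 22200 and 18980 CPM in agonist livers and 24540 and 22790 CPM in vehicle livers. Alb, the albumin gene, stood at 2136 and 2825 CPM in agonist livers and at 3101 and 4552 CPM in vehicle livers (log2 fold change -0.63, SE 0.55).

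The widest difference among the 4 libraries followed the replicate number. The first principal component (43.1% of the variance) had replicate 1 livers at -58 and -21.8, and replicate 2 livers at 23.7 and 56.2. The second (37.6%) parted agonist livers, at 16.6 and 57.6, from vehicle livers, at -48.3 and -25.9. Across genes, log2 CPM correlated at 0.974 between the replicate 1 livers of both groups and at 0.973 between the replicate 2 livers. The value was 0.971 between the agonist livers and 0.974 between the vehicle livers. Pairs that differed in both group and replicate number correlated at 0.962 and 0.966. Arntl, a core gene of the circadian clock, stood at 10.6 and 0.829 CPM in agonist livers and at 18.8 and 1.30 CPM in vehicle livers, and Dbp, a clock output gene, at 106 and 351 CPM in agonist livers and at 61.0 and 393 CPM in vehicle livers. Of 23 clock genes, 4 had both replicate 1 livers above both replicate 2 livers and 15 had both below, a split in 82.6% of the list and in 52.1% of all genes tested. The collection hours are unknown here. The 8 macrophage markers summed to 381 and 304 CPM in agonist livers and to 364 and 124 CPM in vehicle livers, so vehicle replicate 2 was low. The female transcript Xist was at 0.239 and 0.118 CPM in agonist livers and at 0.759 and 0.314 CPM in vehicle livers, and the Y-linked Ddx3y at 97.5 and 84.8 CPM in agonist livers and at 95.6 and 78.6 CPM in vehicle livers, the pattern of male tissue in all 4.

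The agonist raised 5 genes in WT liver past the threshold, and lowered none. They were Pnliprp1, Nebl, Grm8, Fam171a1 and Fyb2, with log2 fold changes of 2.28 to 9.56. With edgeR's quasi-likelihood test at an adjusted p under 0.05 these are 5 of 17831 genes tested, or 0.028%, and the share falling was 0%. Of the same 17831 genes, 653 had an unadjusted p under 0.05, 390 of them higher and 263 lower. The DESeq2 Wald test called 95 rising and 16 falling genes, all 5 of the edgeR calls among them. Counts on the lists below are to be read beside these counts over all genes. None of the 5 stands on a list of drug-handling genes.

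Nebl encodes nebulette, an actin-binding protein of the nebulin family. It reached 52.7 and 62.5 CPM in agonist livers, against 0.190 and 0.404 CPM in vehicle livers. The groups lie far apart, and both vehicle livers are near the limit of detection, with 11 counts between them. The log2 fold change was 7.45 (SE 0.74, edgeR adjusted p = 0.0133). WT vehicle livers of 9 days were as low, at 1.11 and 0.315 CPM. The gene lies at chr2:17343909-17731464 (GRCm38), where the annotation also holds Gm13324 and Mir6419 on the opposite strand.

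Pnliprp1 encodes a relative of pancreatic lipase and is best known from the exocrine pancreas. It stood at 57.0 and 45.8 CPM in agonist livers, against 0.190 and 0 CPM in vehicle livers. Agonist livers held 1637 counts and vehicle livers 2, which gives a ratio of 797 with a 95% interval of 220 to 6590 that covers counting error only. The fitted log2 fold change was 9.56 (SE 0.94, edgeR adjusted p = 0.0133), a value that depends on the prior count because vehicle livers are so close to 0. Of the 8 exocrine pancreas markers followed, 7 were at or near 0 in all 4 livers (at most 0.190 CPM), and Cela2a was at 1.08 and 1.86 CPM in agonist livers and at 1.80 and 1.71 CPM in vehicle livers. The sequence before its annotated start (chr19:58728637-58728886, GRCm38.p6, plus strand, RefSeq) is shown because no other called gene was as close to 0 in vehicle livers. None of the motifs described with the P450 promoters was found in it.
Pnliprp1: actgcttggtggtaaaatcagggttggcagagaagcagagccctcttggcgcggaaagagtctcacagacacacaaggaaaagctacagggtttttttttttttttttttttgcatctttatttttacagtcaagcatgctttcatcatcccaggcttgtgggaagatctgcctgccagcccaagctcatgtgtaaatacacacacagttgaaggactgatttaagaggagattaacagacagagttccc

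Fam171a1, which encodes a membrane protein, stood at 40.8 and 32.6 CPM in agonist livers, against 5.98 and 5.21 CPM in vehicle livers. The gene lies at chr2:3114224-3227806. Each agonist liver was above each vehicle liver by more than the spread within either group. Its log2 fold change was 2.72 (SE 0.31, edgeR adjusted p = 0.0150). Grm8, a metabotropic glutamate receptor known from neurons, stood at 23.3 and 23.8 CPM in agonist livers, against 2.56 and 1.03 CPM in vehicle livers (log2 fold change 3.77, SE 0.44, edgeR adjusted p = 0.0150). The agonist livers almost coincide. Its interval at chr6:27275119-28135178 also holds the microRNA gene Mir592 on the same strand. Fyb2, a paralogue of the T cell adaptor Fyb1, stood at 52.4 and 46.8 CPM in agonist livers, against 13.2 and 7.45 CPM in vehicle livers (log2 fold change 2.28, SE 0.30, edgeR adjusted p = 0.0455). It lies at chr4:104913456-105016863, with Gm12721 on the opposite strand. No source used here gives the strand setting of the counting, so reads of overlapping genes cannot be told apart. The 8 lymphocyte markers summed to 5.26 and 9.63 CPM in agonist livers and to 9.58 and 6.28 CPM in vehicle livers, overlapping ranges.

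No call among the 5 survived every reduced set of libraries: without agonist replicate 2, or without vehicle replicate 2, edgeR called 0 genes in the WT comparison, with 324 higher and 229 lower at an unadjusted p under 0.05 without agonist replicate 2, and 304 higher and 188 lower without vehicle replicate 2 (DESeq2 was not run on these sets). Without agonist replicate 1 it called 3 rising genes, and without vehicle replicate 1 it called 4 rising and 1 falling. With WT vehicle livers of 9 days as the reference, the time that the titles of the agonist livers give, 41 genes rose and 19 fell, all 5 included.

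**Figure D1:**
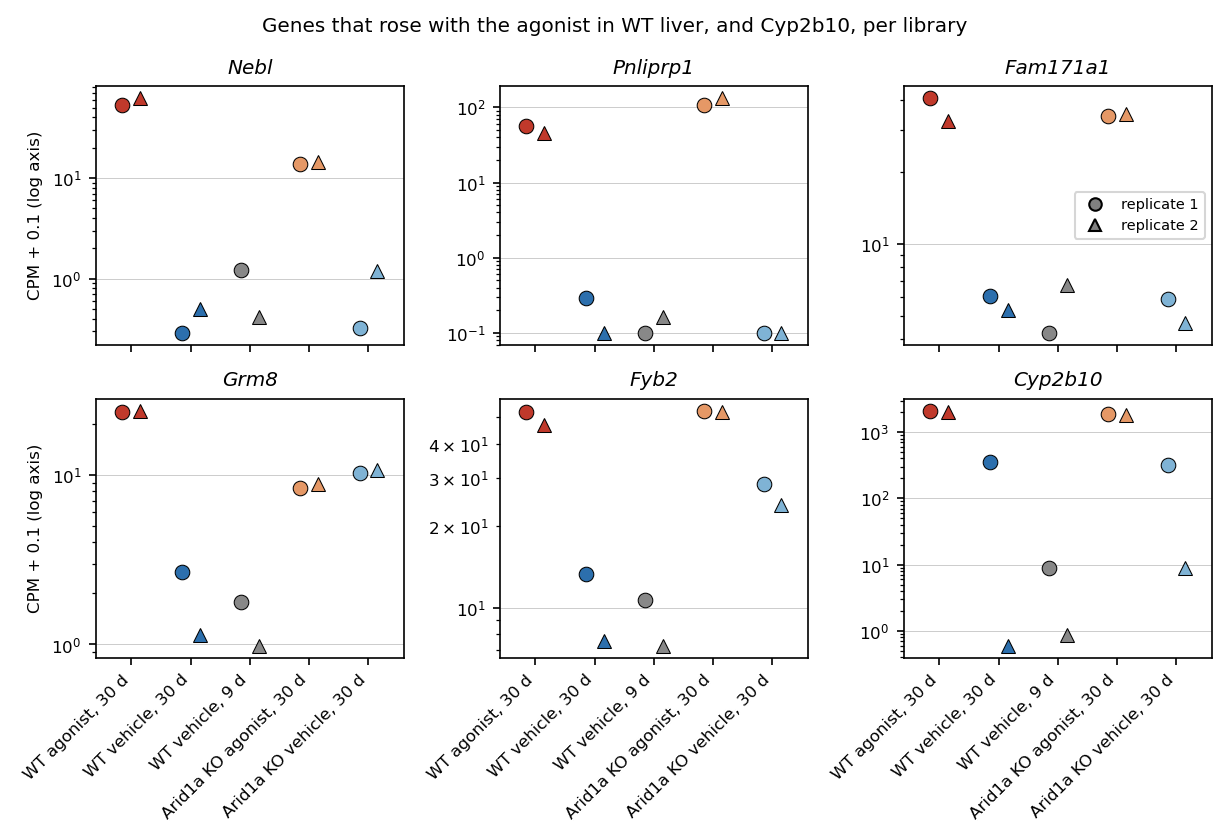
Level of each of the 5 genes that rose in WT liver, and of Cyp2b10, per library, as CPM + 0.1 on a log axis. Circles are replicate 1 and triangles replicate 2. Groups run from WT agonist livers through WT vehicle livers of 30 and 9 days to agonist and vehicle livers labelled Arid1a KO. For Nebl and Pnliprp1 both agonist livers lie far above every vehicle liver, Grm8 is highest in the WT agonist livers, and for Cyp2b10 the vehicle livers themselves span from 350 to 0.494 CPM.

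Both agonist livers were above both vehicle livers for 14.2% of the genes tested and below them for 14.2%. For 94 genes (0.527%) the lowest agonist liver was at least 2-fold above the highest vehicle liver, with a mean of at least 2 CPM, and for 33 genes (0.185%) the highest agonist liver was at least 2-fold below the lowest vehicle liver. This description is not a test, and its thresholds were set after values had been seen. The 14.2% in either direction is the share to hold beside the counts of each list below. Of the 94 higher genes, 26 stand on a list, most of them drug-handling genes, and 14 are predicted or unnamed.

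**Figure D2:**
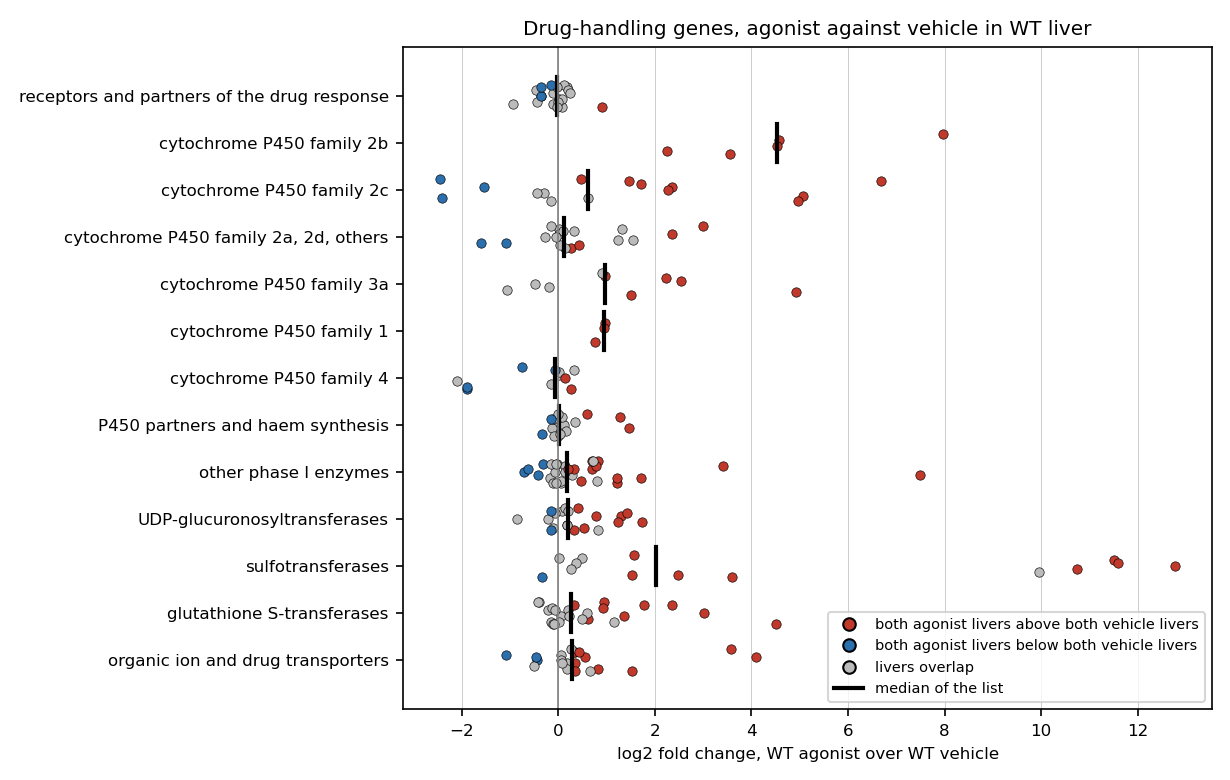
Log2 fold change of every tested member of the drug-handling lists, WT agonist over WT vehicle, 1 point per gene, with the median of each list as a bar. Red points have both agonist livers above both vehicle livers, blue points both below, and grey points overlap. Members of the 2b family and several sulfotransferases lie furthest to the right, and the receptors lie around 0.

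The genes of the receptors stood in overlapping ranges. Nr1i3, which encodes CAR, stood at 49.1 and 119.9 CPM in agonist livers and at 60.1 and 263 CPM in vehicle livers, overlapping groups in which replicate 2 was higher in both (log2 fold change -0.93, SE 0.63). Nr1i2, which encodes PXR, stood at 122 and 144 CPM in agonist livers and at 113 and 139 CPM in vehicle livers. Nr1h3 stood at 139 and 160 CPM in agonist livers and at 146 and 158 CPM in vehicle livers, and Nr1h2, its paralogue LXR beta, at 65.5 and 76.5 CPM in agonist livers and at 63.4 and 71.5 CPM in vehicle livers. Rxra, the shared partner, stood at 666 and 704 CPM in agonist livers and at 666 and 712 CPM in vehicle livers. Of the 20 receptors and partners tested edgeR called 0, with 1 at an unadjusted p under 0.05 and 0 called by DESeq2. That gene was Ahr, the dioxin receptor, at 108 and 158 CPM in agonist livers and at 52.7 and 88.6 CPM in vehicle livers (log2 fold change 0.91, SE 0.40, adjusted p = 1).

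Drug-handling genes were above both vehicle livers more often than the whole. Over 12 lists with 196 genes, 187 were tested, and 77 of them (41.2%, against 14.2% of all genes) had both agonist livers above both vehicle livers, while 21 (11.2%, against 14.2%) had both below. Of the 187, 23 (12.3%, against 0.527%) were higher by at least 2-fold between the nearest livers, and 1 was lower. EdgeR called 0 of the 187, with 41 higher and 5 lower at an unadjusted p under 0.05, and DESeq2 called 23 rising and 2 falling. Over all 17831 genes tested, 390 were higher and 263 lower at that p, and DESeq2 called 95 rising and 16 falling. The median log2 fold change of the 187 was 0.27, against 0 over all genes tested. Set against WT vehicle livers of 9 days, 80 of the 187 (42.8%, against 19.6% of all genes) had both agonist livers above. With vehicle replicate 2 as the only vehicle liver the share above was 45.5% (against 32.5% of all genes), and with vehicle replicate 1 alone 62% (against 29.5%).

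Against WT vehicle livers of 9 days edgeR called 41 of all 17831 genes tested rising and 19 falling. Of the 187 drug-handling genes it called 6 rising and 5 falling. The rising ones were Cyp2c55, Cyp2c65, Cyp2d12, Ces2a, Gstm3 and Ugt2b34, with log2 fold changes of 1.43 to 8.96. The falling ones were Cyp2c40, Cyp2c68, Cyp2c69, Cyp3a41a and Cyp3a44, with log2 fold changes of -8.99 to -1.67. Cyp2c40 stood at 0.119 and 0.868 CPM in agonist livers, at 4.36 and 2.65 CPM in vehicle livers of 30 days and at 145 and 128 CPM in those of 9 days, so it was highest in the 9-day livers. Cyp3a44 stood at 1.43 and 0.750 CPM in agonist livers, at 0.190 and 0.224 CPM in vehicle livers of 30 days and at 28.6 and 86.9 CPM in those of 9 days, so its direction depends on which vehicle livers it is set against. Over all genes described here whose agonist livers were above both vehicle livers of 30 days, 36 were also above both of 9 days, 5 overlapped them and 4 were below. Of those below both vehicle livers of 30 days, 10 were also below those of 9 days and 5 overlapped them. Of all genes tested, 19.6% were above and 22.4% below both vehicle livers of 9 days. Both comparisons use the same agonist livers, and the genes were chosen with values known, so these counts are not an independent check.

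The 2b family of cytochrome P450, the classical targets of CAR, had all 5 members higher in both agonist livers, with a median log2 fold change of 4.52. EdgeR called 0 of them, with 2 at an unadjusted p under 0.05, and DESeq2 called 1. Cyp2b10, the standard readout of CAR activity in mouse liver, stood at 2106 and 2018 CPM in agonist livers, against 350 and 0.494 CPM in vehicle livers. The agonist livers lie within a narrow range, and the vehicle livers differ from each other by a ratio of 709. Its log2 fold change was 3.56 with an SE of 2.06 (edgeR adjusted p = 1). Without vehicle replicate 1 the log2 fold change was 12.01 (SE 3.04, edgeR adjusted p = 0.581), and without vehicle replicate 2 it was 2.57 (SE 1.86, edgeR adjusted p = 1). WT vehicle livers of 9 days stood at 8.83 and 0.756 CPM. Vehicle replicate 1 thus held 17% of the agonist mean of Cyp2b10 and 0.329% of the agonist mean of Nebl. Whether any agonist reached that animal cannot be told from these values, and every comparison with vehicle replicate 1 carries this doubt.

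Cyp2b13, a family member expressed mainly in female liver, stood at 15.7 and 78.6 CPM in agonist livers, against 0.190 and 0.180 CPM in vehicle livers (log2 fold change 7.98, SE 2.03, edgeR adjusted p = 0.385). Both agonist livers are high, but they differ from each other. Cyp2b9, also known as female-biased, stood at 27.6 and 121.7 CPM in agonist livers, against 6.64 and 24.6 CPM in vehicle livers. WT vehicle livers of 9 days held 104 and 0.126 CPM of Cyp2b9, so 1 of them lies within the agonist range. Cyp2b23 stood at 3.59 and 3.12 CPM in agonist livers, against 0.379 and 0 CPM in vehicle livers. Reads of these near-identical genes can be split between copies, so the value of each copy is uncertain.

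In the 2c family, 8 of 15 members were higher and 3 lower in both agonist livers, against 14.2% of all genes in either direction. EdgeR called 0, with 6 higher and 3 lower at an unadjusted p under 0.05, and DESeq2 called 2 rising and 1 falling. Cyp2c55, a gene known to respond to CAR and PXR, stood at 938 and 848 CPM in agonist livers, against 48.1 and 6.06 CPM in vehicle livers. The groups are far apart, with vehicle replicate 1 the higher vehicle liver again (log2 fold change 5.06, SE 0.85, edgeR adjusted p = 0.101). It passed the threshold without vehicle replicate 1 (log2 fold change 7.20, SE 0.79, adjusted p = 0.0217) and against WT vehicle livers of 9 days (8.96, SE 1.03, adjusted p = 0.00592). Cyp2c29, an abundant CAR target, stood at 7144 and 5281 CPM in agonist livers, against 3495 and 993.8 CPM in vehicle livers (log2 fold change 1.47, SE 1.01, edgeR adjusted p = 1). Cyp2c65 and Cyp2c66 were detected mainly with the agonist, Cyp2c65 at 2.99 and 1.34 CPM in agonist livers against 0.0948 and 0.0449 CPM in vehicle livers, and Cyp2c66 at 5.86 and 2.01 CPM in agonist livers against 0.0948 and 0 CPM in vehicle livers. Members of this family also share sequence, so reads can be split between them.

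In the 3a family 5 of 9 members were higher in both agonist livers and none lower, against 14.2% of all genes in either direction. DESeq2 called 1 and edgeR 0, with 2 at an unadjusted p under 0.05. Cyp3a11, the main 3a enzyme of mouse liver and a target of PXR and CAR, stood at 6506 and 5041 CPM in agonist livers, against 1797 and 2241 CPM in vehicle livers. The groups are apart and the vehicle livers close to each other (log2 fold change 1.52, SE 0.28, edgeR adjusted p = 0.119). The DESeq2 Wald test called it, with an adjusted p of 2.28e-05. Cyp3a13 stood at 415 and 421 CPM in agonist livers, against 213 and 213 CPM in vehicle livers (log2 fold change 0.97, SE 0.27, edgeR adjusted p = 0.550). All 3 members of family 1, targets of the dioxin receptor, were higher in both agonist livers by a median log2 of 0.95, with 0 called by edgeR, 0 at an unadjusted p under 0.05 and 0 by DESeq2. Cyp1a2 stood at 1833 and 2092 CPM in agonist livers, against 839.6 and 1159 CPM in vehicle livers. Family 4, which hydroxylates fatty acids, had 2 of 11 higher and 4 lower, with Cyp4a10 at 8.61 and 40.2 CPM in agonist livers, against 57.9 and 125.6 CPM in vehicle livers (log2 fold change -1.89, SE 0.98). EdgeR and DESeq2 called 0 of the 11, and 0 were at an unadjusted p under 0.05.

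The sequences before the starts of Cyp2b10 (chr7:25897408-25897657, plus strand) and Cyp3a11 (chr5:145879855-145880104, minus strand) are shown because these are the textbook responders of their families. Both come from RefSeq on GRCm38.p6 and are written in the direction of transcription. Capitals mark matches of 4 motifs searched on both strands in windows from 250 bases before to 50 after each start: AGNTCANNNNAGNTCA, the DR4 element, a pair of receptor sites 4 bases apart, TTATGNAA, the D-box of the clock output factors, CACGTG, the E-box of clock factors, and AGGTCA, a single receptor site, which the DR4 element can contain.
Cyp2b10: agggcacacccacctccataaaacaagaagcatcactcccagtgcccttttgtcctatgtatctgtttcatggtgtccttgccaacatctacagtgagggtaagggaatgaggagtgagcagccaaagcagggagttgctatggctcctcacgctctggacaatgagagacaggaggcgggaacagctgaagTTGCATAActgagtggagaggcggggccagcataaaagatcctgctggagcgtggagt
Cyp3a11: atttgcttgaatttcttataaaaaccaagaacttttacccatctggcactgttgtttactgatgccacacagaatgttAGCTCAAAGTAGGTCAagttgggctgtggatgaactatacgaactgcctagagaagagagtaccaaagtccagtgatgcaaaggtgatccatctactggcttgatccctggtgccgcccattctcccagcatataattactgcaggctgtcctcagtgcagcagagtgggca

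In Cyp3a11 the capitals are a DR4 element whose first base lies 172 bases before the start, and it contains AGGTCA. In Cyp2b10 the capitals are a D-box 58 bases before the start. The DR4 element was found in 0.125% of 32851 windows, the D-box in 3.38%, the E-box in 7.15% and AGGTCA in 16.3%. Of the 94 genes higher by at least 2-fold, 71 have a window. The DR4 element was found in 1 of the 71 (1.41%), AGGTCA in 18 (25.4%, against 18.1% of all genes with a window), the E-box in 11 (15.5%, against 8.09%) and the D-box in 5 (7.04%, against 3.99%). These matches describe letters in a short window, and distal enhancers lie outside it.

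Of 16 genes for partners of the P450 enzymes and haem synthesis, 3 were higher and 2 lower in both agonist livers. The share over all genes was 14.2% in either direction, and the median log2 fold change of the list was 0.02. The 3 higher genes are given here. Por, the reductase that passes electrons to them, stood at 860.1 and 1896 CPM in agonist livers, against 343.8 and 648.6 CPM in vehicle livers (log2 fold change 1.47, SE 0.57, edgeR adjusted p = 1). Alas1, the rate-limiting enzyme of haem synthesis, stood at 1610 and 2283 CPM in agonist livers, against 1143 and 464 CPM in vehicle livers (1.28, SE 0.49, adjusted p = 1). Por differed by replicate number within both groups. Against WT vehicle livers of 9 days the ranges overlap, at 936 and 867 CPM for Por and at 1760 and 1643 CPM for Alas1. Cyb5a, cytochrome b5, stood at 1253 and 1298 CPM in agonist livers, against 809.5 and 875 CPM in vehicle livers (0.60, SE 0.22, adjusted p = 1). Of the 16 genes on this list edgeR called 0, with 3 higher at an unadjusted p under 0.05, and DESeq2 called 0.

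Among other phase I enzymes 12 of 30 were higher and 4 lower in both agonist livers, against 14.2% of all genes in either direction. EdgeR called 0, with 5 higher at an unadjusted p under 0.05, and DESeq2 called 3 rising. Akr1b7, an aldo-keto reductase, stood at 20.7 and 25.4 CPM in agonist livers, against 0.190 and 0.0898 CPM in vehicle livers (log2 fold change 7.48, SE 1.35, edgeR adjusted p = 0.119). In WT vehicle livers of 9 days Akr1b7 was also low, at 0.318 and 0.945 CPM. Vehicle livers labelled Arid1a KO held 0.904 and 8.05 CPM at 30 days and 11.3 and 29.65 CPM at 9 days. The highest of these lies above both WT agonist livers. Ces2a, a carboxylesterase, stood at 2167 and 2060 CPM in agonist livers, against 603 and 687 CPM in vehicle livers (1.71, SE 0.35, adjusted p = 0.172). Aldh1a7 stood at 534 and 656 CPM in agonist livers, against 350 and 348 CPM in vehicle livers (0.77, SE 0.19, adjusted p = 0.366). For both genes the groups are apart and the vehicle livers close together.

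**Figure D3:**
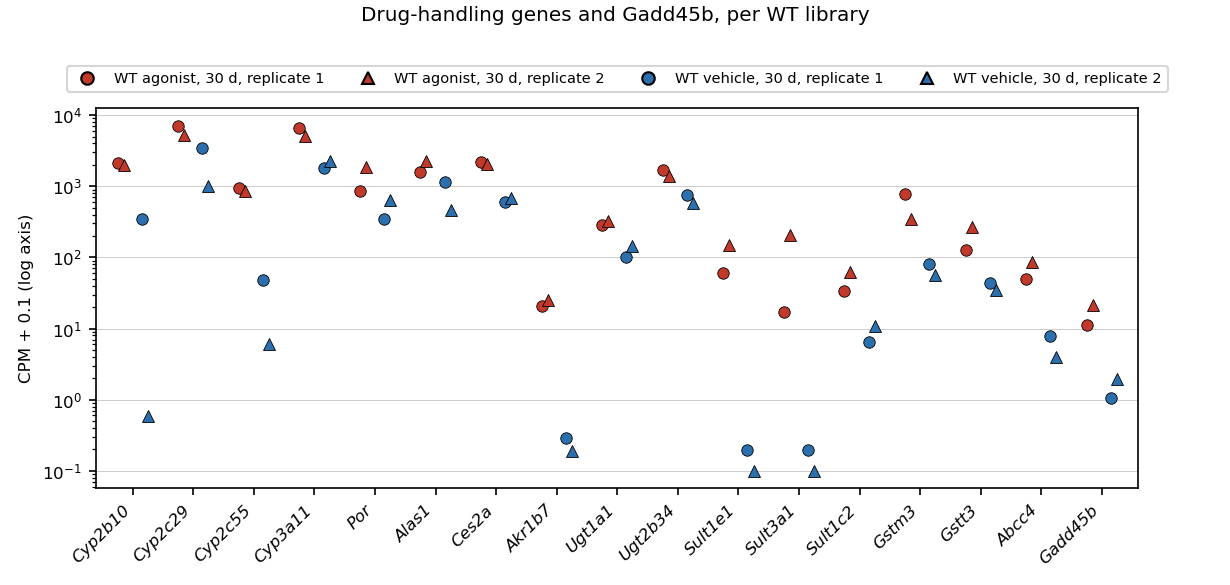
Level of drug-handling genes and Gadd45b in each WT library, as CPM + 0.1 on a log axis, agonist livers in red to the left of vehicle livers in blue, with circles for replicate 1 and triangles for replicate 2. Only genes with both agonist livers above both vehicle livers are drawn, so the figure does not show how often this occurred. Of the 187 drug-handling genes tested, 77 had both above and 21 had both below. The vehicle livers are furthest from each other for Cyp2b10.

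Conjugating enzymes follow the P450 enzymes. Of 20 UDP-glucuronosyltransferases, 8 were higher and 2 lower in both agonist livers, against 14.2% of all genes in either direction. EdgeR called 0 of the 20, with 4 higher at an unadjusted p under 0.05, and DESeq2 called 2 rising. Ugt1a1, the enzyme that conjugates bilirubin, stood at 283 and 326 CPM in agonist livers, against 101.5 and 144 CPM in vehicle livers (log2 fold change 1.31, SE 0.26, edgeR adjusted p = 0.149). Ugt2b34 stood at 1705 and 1415 CPM in agonist livers, against 756 and 574.5 CPM in vehicle livers (1.23, SE 0.23, adjusted p = 0.125). The Ugt1a genes share their last exons, so their counts are uncertain.

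Sult1e1 and Sult3a1 were near 0 in vehicle livers of 30 days. Of 14 sulfotransferases tested, 8 were higher and 1 lower in both agonist livers (14.2% of all genes in either direction), with a median log2 fold change of 2.02. DESeq2 called 7 rising and edgeR 0, with 8 higher at an unadjusted p under 0.05. Sult1e1, the oestrogen sulfotransferase, stood at 60.7 and 151 CPM in agonist livers, against 0.0948 and 0 CPM in vehicle livers. With 4325 counts in agonist livers and 1 in vehicle livers the ratio was 4210, with a 95% counting interval of 756 to 166000 (edgeR adjusted p = 0.139). Sult3a1 stood at 17.1 and 204 CPM in agonist livers, against 0.0948 and 0 CPM in vehicle livers, so agonist replicate 2 was far higher than agonist replicate 1 (adjusted p = 0.385). WT vehicle livers of 9 days held 20.7 and 95.6 CPM of Sult3a1, within the agonist range, but 0.398 and 0.0315 CPM of Sult1e1. Sult1c2 stood at 33.6 and 63.2 CPM in agonist livers, against 6.45 and 10.8 CPM in vehicle livers (log2 fold change 2.48, SE 0.56, adjusted p = 0.269).

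Of 24 glutathione S-transferases, 9 were higher in both agonist livers and none lower, against 14.2% of all genes in either direction. EdgeR called 0, with 8 higher at an unadjusted p under 0.05, and DESeq2 called 4 rising. Gstm3 stood at 770.5 and 345 CPM in agonist livers, against 82.0 and 56.3 CPM in vehicle livers (log2 fold change 3.01, SE 0.57, edgeR adjusted p = 0.132). Gstt3 stood at 126.8 and 270.4 CPM in agonist livers, against 43.5 and 34.8 CPM in vehicle livers (2.35, SE 0.47, adjusted p = 0.143). Gsta4 stood at 113 and 143 CPM in agonist livers, against 42.6 and 56.7 CPM in vehicle livers (1.37, SE 0.34, adjusted p = 0.341). Groups are apart for all 3, with the higher agonist liver being replicate 1 for Gstm3 and replicate 2 for the other two.

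Of 22 transporters of drugs and organic ions, 10 were higher and 3 lower in both agonist livers, against 14.2% of all genes in either direction. DESeq2 called 2 rising and edgeR 0, with 2 higher at an unadjusted p under 0.05. Abcc4, an exporter of bile acid and drug conjugates across the sinusoidal membrane, stood at 49.6 and 85.2 CPM in agonist livers, against 7.68 and 3.86 CPM in vehicle livers (log2 fold change 3.58, SE 0.80, edgeR adjusted p = 0.254). Slc22a27, of the organic anion transporter family, stood at 3.71 and 8.64 CPM in agonist livers, against 0.379 and 0.359 CPM in vehicle livers (4.09, SE 0.68, adjusted p = 0.101). Against WT vehicle livers of 9 days its log2 fold change was -0.71. Abcg2, an exporter of the canalicular membrane, stood at 113 and 96.0 CPM in agonist livers, against 129.6 and 152 CPM in vehicle livers (-0.43, SE 0.20, adjusted p = 1), and at 127 and 87.7 CPM in WT vehicle livers of 9 days.

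Of 20 LXR targets tested, 2 were higher and 5 lower in both agonist livers (14.2% of all genes in either direction), with a median log2 fold change of -0.13. EdgeR called 0, with 3 lower at an unadjusted p under 0.05, and DESeq2 called 0. Srebf1 stood at 318 and 410.5 CPM in agonist livers, against 432 and 1064 CPM in vehicle livers (log2 fold change -1.04, SE 0.42, edgeR adjusted p = 1). Abca1 stood at 338 and 241 CPM in agonist livers and at 419 and 247.5 CPM in vehicle livers, overlapping ranges. Pltp, a phospholipid transfer protein, stood at 25.5 and 20.6 CPM in agonist livers, against 33.7 and 47.0 CPM in vehicle livers (-0.82, SE 0.32, adjusted p = 1).

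Lipid synthesis genes stood lower more often than the whole. Over the LXR, fatty acid synthesis and cholesterol synthesis lists together, 4 of 59 genes (6.78%, against 14.2% of all genes) had both agonist livers above, and 22 (37.3%, against 14.2%) had both below. Of the 24 cholesterol synthesis genes 13 were lower and none higher, with a median log2 fold change of -0.26. DESeq2 called 0 and edgeR 0, with 0 at an unadjusted p under 0.05. Lss, which closes the sterol rings, stood at 115 and 135 CPM in agonist livers, against 183 and 192 CPM in vehicle livers (-0.59, SE 0.42, edgeR adjusted p = 1). Acly, which supplies acetyl-CoA for both pathways, stood at 498 and 301.5 CPM in agonist livers, against 659 and 636 CPM in vehicle livers (-0.70, SE 0.38, adjusted p = 1). WT vehicle livers of 9 days overlap the agonist livers for both, at 206 and 122 CPM for Lss and at 404 and 385 CPM for Acly.

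Fatty acid oxidation genes and PPARalpha targets were lower in both agonist livers for 11 of 26 and higher for 1, with a median log2 fold change of -0.35. The share over all genes was 14.2% in either direction. EdgeR called 0, with 3 lower at an unadjusted p under 0.05, and DESeq2 called 0. Plin2, a lipid droplet coat protein, stood at 348 and 191 CPM in agonist livers, against 466 and 466 CPM in vehicle livers (-0.79, SE 0.33, edgeR adjusted p = 1), and at 317 and 253 CPM in WT vehicle livers of 9 days. Fgf21, a fasting hormone, stood at 0.359 and 0.237 CPM in agonist livers, against 0.854 and 2.87 CPM in vehicle livers (-2.76, SE 1.07, adjusted p = 1). Bile acid genes were higher for 3 and lower for 6 of 19, against 14.2% of all genes in either direction. Of the 19, 0 were called by edgeR, 0 were at an unadjusted p under 0.05 and 0 were called by DESeq2. Cyp7a1, the rate-limiting enzyme of bile acid synthesis, stood at 109 and 239 CPM in agonist livers and at 65.7 and 355 CPM in vehicle livers, ranges that overlap and follow the replicate number. Among 19 genes of glucose handling, Pfkfb3, an activator of glycolysis, stood at 73.5 and 74.6 CPM in agonist livers, against 39.8 and 38.8 CPM in vehicle livers (0.91, SE 0.23, adjusted p = 0.399). It was the only member at an unadjusted p under 0.05, and edgeR and DESeq2 called 0.

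Genes of DNA replication summed to 465.8 and 532.5 CPM in agonist livers and to 436.4 and 497.9 CPM in vehicle livers. Mitotic genes summed to 26.1 and 29.1 CPM in agonist livers and to 29.6 and 29.8 CPM in vehicle livers. Of 28 genes of DNA replication 1 was higher and 10 lower in both agonist livers, with a median log2 fold change of -0.21, and of 25 mitotic genes 3 were higher and 7 lower, with a median of 0.02. Over both lists 7.55% were higher and 32.1% lower, against 14.2% of all genes in either direction. EdgeR called 0 on either list, 0 were at an unadjusted p under 0.05, and DESeq2 called 0. Mki67, a marker of cycling cells, stood at 2.87 and 2.01 CPM in agonist livers and at 1.23 and 1.12 CPM in vehicle livers (1.02, SE 0.71, edgeR adjusted p = 1), while WT vehicle livers of 9 days were above both groups at 6.68 and 22.3 CPM. Ccnd1, the cyclin of cell cycle entry, stood at 18.3 and 25.2 CPM in agonist livers and at 22.9 and 23.4 CPM in vehicle livers, overlapping groups. Gadd45b, a stress and growth gene that CAR agonists are known to raise in mouse liver, stood at 11.2 and 21.6 CPM in agonist livers, against 0.948 and 1.89 CPM in vehicle livers. Its groups are apart (log2 fold change 3.49, SE 0.60, edgeR adjusted p = 0.108). On its list of 21 growth response genes 2 were higher and 5 lower, 1 was higher at an unadjusted p under 0.05, edgeR called 0 and DESeq2 called 1 rising.

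Genes known as female-biased in mouse liver were higher in both agonist livers for 12 of 20 and lower for 1, against 14.2% of all genes in either direction, with a median log2 fold change of 2.23. DESeq2 called 4 rising and edgeR 0, with 4 higher at an unadjusted p under 0.05. Several are also drug-handling genes, Cyp2b9, Cyp2b13 and Sult3a1 among them. Hao2, a peroxisomal hydroxyacid oxidase, stood at 8.61 and 12.4 CPM in agonist livers, against 0.0948 and 0.0898 CPM in vehicle livers. The agonist livers held 385 counts and the vehicle livers 3, a ratio of 125 with a 95% counting interval of 42.4 to 609 (edgeR adjusted p = 0.0594). Against WT vehicle livers of 9 days Hao2 passed the threshold (log2 fold change 6.02, SE 0.86, adjusted p = 0.0267), whereas 3 other female-biased genes, Cux2, Cyp3a41a and Cyp3a44, fell. Cux2, a female-biased transcription factor, stood at 0.478 and 0.829 CPM in agonist livers, at 0.474 and 0.449 CPM in vehicle livers of 30 days and at 19.2 and 211.5 CPM in those of 9 days. Both vehicle livers of 9 days were thus above the 4 WT livers of 30 days for Cux2. Male-biased genes had a median log2 fold change of 0.02, with 2 of 19 higher and 3 lower, edgeR called 0, with 2 lower at an unadjusted p under 0.05, and DESeq2 called 2 falling. Susd4 stood at 9.44 and 15.6 CPM in agonist livers, against 42.4 and 56.9 CPM in vehicle livers (-1.97, SE 0.48, adjusted p = 0.339), and Cyp2u1 at 23.8 and 11.4 CPM in agonist livers, against 41.6 and 63.6 CPM in vehicle livers (-1.60, SE 0.35, adjusted p = 0.254). WT vehicle livers of 9 days held 18.1 and 14.5 CPM of Cyp2u1, within the agonist range, where its log2 fold change was 0.095. Xist was near 0 and Ddx3y present in all 4 livers, as given above. WT vehicle livers of 9 days held 0.0796 and 0.0945 CPM of Xist and 80.9 and 62.8 CPM of Ddx3y, also the pattern of male tissue.

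Feedback targets of Wnt signalling had a median log2 fold change of -0.96 over 11 genes, with 1 higher and 4 lower in both agonist livers. They summed to 139.5 and 170.6 CPM in agonist livers and to 153.5 and 333.4 CPM in vehicle livers. By this sum vehicle replicate 1 lay within the agonist range, and only vehicle replicate 2 was above it. The share over all genes was 14.2% in either direction. EdgeR called 0, with 1 higher and 2 lower at an unadjusted p under 0.05, and DESeq2 called 0. Nkd1 stood at 4.78 and 6.32 CPM in agonist livers, against 10.3 and 12.5 CPM in vehicle livers (-1.03, SE 0.36, edgeR adjusted p = 0.960), while Tnfrsf19 stood at 25.6 and 28.2 CPM in agonist livers, against 9.86 and 15.9 CPM in vehicle livers (1.06, SE 0.33, adjusted p = 0.737). Targets of NRF2, the oxidant sensor, were higher for 9 and lower for 4 of 20 (14.2% of all genes in either direction), many of them the glutathione enzymes above. DESeq2 called 3 rising and edgeR 0, with 5 higher and 1 lower at an unadjusted p under 0.05.

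**Figure D4:**
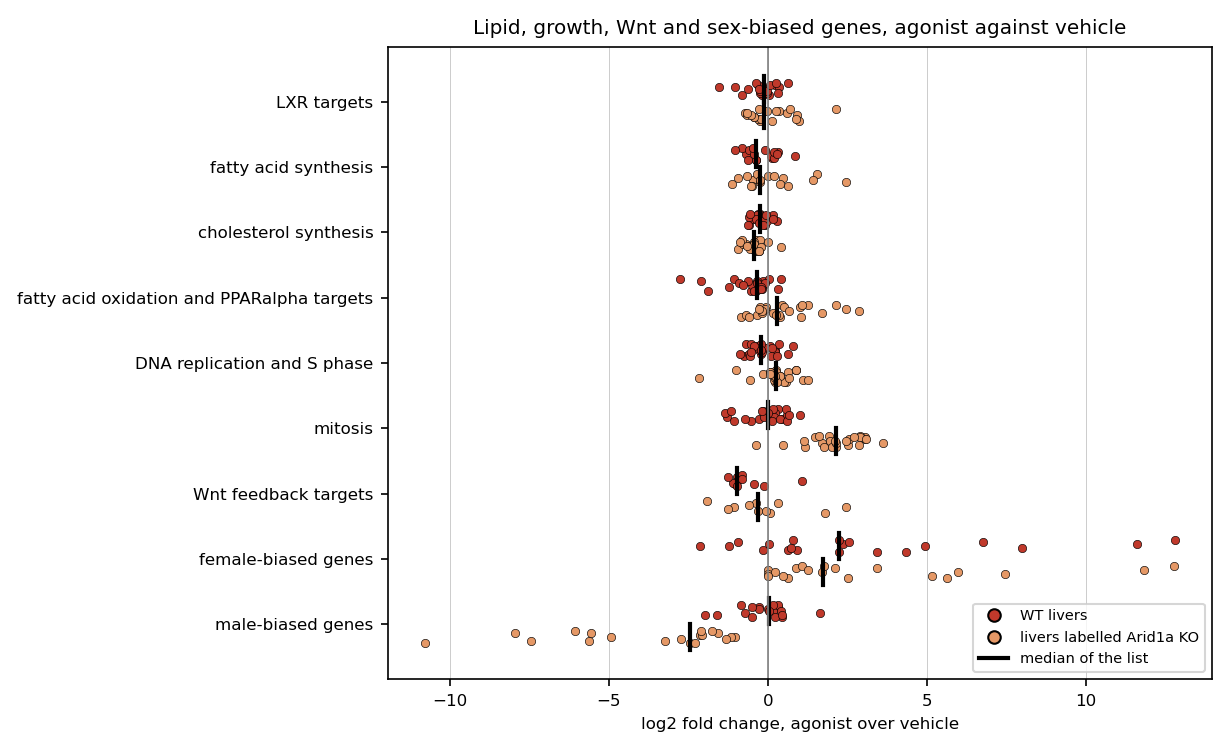
Log2 fold change, agonist over vehicle, of every tested member of 9 further lists, in WT livers (red, upper strip) and in livers labelled Arid1a KO (orange, lower strip), with the median of each list as a bar. In WT livers the mitotic and male-biased genes centre near 0, with medians of 0.02 each, while in livers labelled Arid1a KO their medians are 2.12 and -2.46.

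The WT response was set against that of livers labelled Arid1a KO, which shares no library with it. As the check of that label, Arid1a stood at 81.7 and 67.9 CPM in agonist livers labelled Arid1a KO and at 94.2 and 75.7 CPM in vehicle livers labelled Arid1a KO, against 93.1 and 74.4 CPM in WT agonist livers and 104 and 85.5 CPM in WT vehicle livers. These ranges overlap, and a count over the whole gene does not show the loss of an exon, so this level does not check the label. Arid1b, its paralogue, stood at 46.7 and 46.8 CPM in WT agonist livers and at 59.6 and 42.7 CPM in WT vehicle livers, overlapping ranges. In livers labelled Arid1a KO the agonist raised 98 genes (0.55% of those tested) and lowered 57 (0.32%), against 5 and 0 in WT livers.

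Of the 5 genes that rose in WT livers 3 (60%) also rose in livers labelled Arid1a KO, where they made up 3.06% of the rising genes. They were Nebl, Pnliprp1 and Fam171a1. Nebl stood at 13.7 and 14.2 CPM in agonist livers labelled Arid1a KO, against 0.226 and 1.08 CPM in vehicle livers of that label (log2 fold change 4.17, SE 0.63, edgeR adjusted p = 0.0151). Pnliprp1 stood at 107 and 134 CPM in agonist livers of that label, against 0 and 0 CPM in its vehicle livers, so it is detected with the agonist in both genotypes. Fam171a1 stood at 34.1 and 34.8 CPM in agonist livers of that label, against 5.76 and 4.58 CPM in its vehicle livers, close to the WT values.

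Grm8 went the other way in value. It stood at 8.22 and 8.71 CPM in agonist livers labelled Arid1a KO, against 10.2 and 10.6 CPM in vehicle livers of that label (log2 fold change -0.29, SE 0.38, edgeR adjusted p = 0.817). The WT response minus the response in livers labelled Arid1a KO was 4.06 (SE 0.57) with an edgeR adjusted p of 0.0747, short of the threshold. Vehicle livers labelled Arid1a KO stood above both WT vehicle livers.

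Of the 94 genes higher by at least 2-fold in WT livers, 79 had a positive log2 fold change in livers labelled Arid1a KO. For 68 of them (72.3%, against 20.3% of all genes) both agonist livers of that label lay above both of its vehicle livers, and 16 were called rising there. Of the 33 lower genes, 25 had a negative log2 fold change, and for 10 (30.3%, against 19.2% of all genes) both agonist livers lay below. Cyp2b10 stood at 1871 and 1816 CPM in agonist livers labelled Arid1a KO, against 320 and 8.84 CPM in vehicle livers of that label. Vehicle replicate 1 was thus the high vehicle liver there as well, and the WT response minus that in livers labelled Arid1a KO was 0.07 (SE 2.64, edgeR adjusted p = 1).

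**Figure D5:**
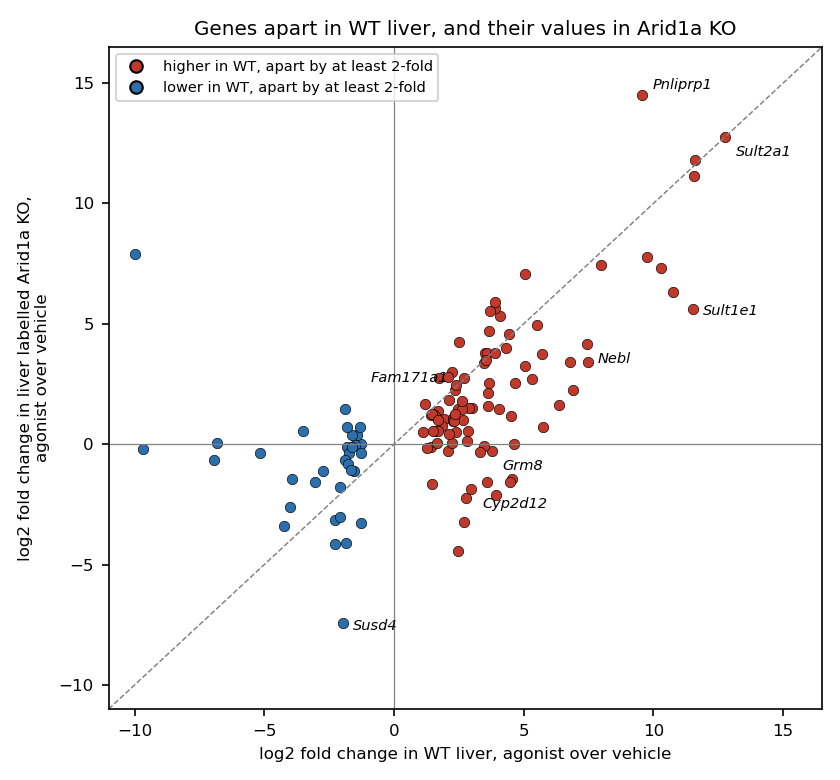
Log2 fold change in livers labelled Arid1a KO against that in WT livers, agonist over vehicle, for the 94 genes higher (red) and 33 lower (blue) by at least 2-fold between the nearest WT livers. The dashed line marks equal values, and values of genes at 0 in a group depend on the prior count. Of the red genes 79 lie above 0 on the vertical axis, and Grm8 and Cyp2d12 lie below it.

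A single gene passed the test of the difference between genotypes (0.00561% of those tested). Slc1a2, a glutamate transporter of pericentral hepatocytes, stood at 145 and 153 CPM in WT agonist livers, against 151 and 242 CPM in WT vehicle livers, overlapping groups. In agonist livers labelled Arid1a KO it stood at 0.696 and 0.524 CPM, against 36.7 and 32.3 CPM in vehicle livers of that label. The WT response minus the response in livers labelled Arid1a KO was 5.45 (SE 0.54, edgeR adjusted p = 0.0129). The call was lost without WT agonist replicate 2 (adjusted p = 0.0601) and without either agonist liver labelled Arid1a KO (0.112 and 0.163). DESeq2 called 132 genes for this difference, and edgeR 0 to 23 when a library was left out. Mitotic genes had a median log2 fold change of 0.02 in WT livers and 2.12 in livers labelled Arid1a KO, and male-biased genes 0.02 in WT livers and -2.46 in livers labelled Arid1a KO. The difference between genotypes was not tested over a list.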

How the data were processed

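Polyadenylated RNA was sequenced as TruSeq libraries, per the labels' protocols. Per the submitters' processing notes the authors used fastp, STAR 2.7.3, featureCounts and GRCm38.p6. The count values are whole reads per gene, as deposited by the authors. Their annotation release is unknown here.

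The 14 liver libraries (7 groups of 2, called biological replicates in the series' design) were scaled by TMM after filterByExpr, and tested with edgeR's quasi-likelihood F test (edgeR 4.0.16 in R 4.3.3, 7 residual degrees of freedom), adjusted by Benjamini-Hochberg over 17831 of 55291 genes and called under 0.05. Standard errors (SE) follow from dividing a log2 fold change by the root of its F statistic. The square root of the common dispersion was 29.3%. Both edgeR and DESeq2 were tested on simulated data, where a larger share of DESeq2's calls was false, so DESeq2 counts are given only as an alternative. There edgeR also found fewer of the altered genes than DESeq2 at each fold tried, and it missed most of those altered 2-fold. Whether either holds for these livers was not tested.

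Members, gene lists and tests were chosen with earlier results of these data known. Genes are named as called members, as the members of a list with the smallest p, or from a short list followed throughout. Arntl, Dbp, Ddx3y, Xist and the genes falling against 9-day livers were chosen after their values were seen. Some genes that the rule selects are not printed. A share at 0 counts was set against a floor of 3 counts. Positions are from GENCODE M21 (96.4% of symbols matched), promoters from RefSeq.

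Alternatives were RLE scaling, no filter, DESeq2 1.42.0, other sets of libraries, a replicate block, the 9-day WT livers as reference and leaving out each library. The fit of only the 30-day livers with the block, and the AGGTCA motif, were added after the data were seen. Figures were drawn with matplotlib 3.10.9.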

Additional observations from a re-analysis of the deposited data

Results flagged for a closer look

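The agonist response of Slc1a2 differed between genotypes by the test of the difference itself. The WT response minus the response in livers labelled Arid1a KO was a log2 value of 5.45, with an SE of 0.54 and an edgeR adjusted p of 0.0129. The log2 fold change was -0.40 (SE 0.32) in WT livers and -5.85 (SE 0.44) in livers labelled Arid1a KO, so the value of the difference comes from the second. The call was lost in 3 of the fits that left out a library, at adjusted p of 0.0601, 0.112 and 0.163. Groups of 2 livers are too small to look for a single liver that stands apart.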

How the results depend on the processing

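In the WT comparison, the counts of 5 rising and 0 falling genes were the same with RLE scaling and with only the 4 libraries compared, where 2 of the 5 genes kept their call. Without a filter on low counts they were 271 and 122, with DESeq2 95 and 16, with WT vehicle livers of 9 days as the reference 41 and 19, and with the mean of both vehicle times 67 and 4. All 5 genes were called in each of those 4. With all 16 libraries 1 gene rose. Leaving out a library gave 0 to 4 rising and 0 to 1 falling genes. With the replicate number as a block 5 rose, 4 of them the same, since Fyb2 lost its call (adjusted p = 0.0589) and Hao2 gained one (0.0140), and with only the 30-day livers and the block 17 rose, all 5 included. The replicate numbers are not said to mark a shared day or litter. Deviations of same-numbered libraries correlated at 0.366 between the 2 WT groups, and at 0.170 to 0.366 among the 4 groups of 30 days. The causes of these differences were not tested.

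In livers labelled Arid1a KO the 155 calls became 1353 without a filter, 671 with DESeq2, 149 with RLE scaling, 207 with the block and 29 to 290 when a library was left out. The 1 call of the difference between genotypes became 493 without a filter, 132 with DESeq2, 9 with the block, 4 with only the 30-day livers and the block, and 0 to 23 when a library was left out. Slc1a2 lost its call there without WT agonist replicate 2 or without either agonist liver labelled Arid1a KO, at adjusted p of 0.0601 to 0.163.

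Signs that reversed belong to genes that edgeR did not call against 30-day vehicle livers, of which DESeq2 called Slc22a27 and Cyp2u1. Against WT vehicle livers of 9 days the log2 fold changes were 0.058 for Abca1, 0.018 for Acly, 0.18 for Arid1a, 0.054 for Arid1b, 0.13 for Arntl, 1.76 for Cela2a, -7.33 for Cux2, -8.99 for Cyp3a41a, -5.83 for Cyp3a44, 0.10 for Cyp2u1, -2.63 for Mki67, 0.037 for Nr1h3, -0.37 for Nr1i2, 0.34 for Rxra and -0.71 for Slc22a27. Against the mean of both vehicle times they were 0.0030 for Arid1a, 0.77 for Cela2a, -3.35 for Cux2, -2.03 for Cyp3a41a, -1.80 for Cyp3a44, -0.81 for Mki67, 0.0040 for Nr1h3, -0.14 for Nr1i2 and 0.16 for Rxra. With only the 30-day livers and the block Cyp7a1 was at 0.0041. Leaving out each library, the ranges were -0.53 to 0.22 for Abca1, -0.34 to 0.13 for Arid1b, -3.54 to 2.04 for Arntl, -1.10 to 1.92 for Dbp, -0.047 to 0.19 for Nr1h2, -0.063 to 0.25 for Nr1i2, -1.03 to 1.42 for Cyp7a1, -0.060 to 0.21 for Ddx3y, -0.14 to 0.077 for Nr1h3, -1.73 to 0.51 for Nr1i3, -0.059 to 0.050 for Rxra, -0.35 to 0.13 for Ccnd1 and -0.70 to 0.092 for Cela2a.

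Of the other values of named genes under these alternatives, 820 kept their direction and side of the threshold, 107 newly passed it and 26 no longer passed it. With a library left out, the spread of a group with 1 liver is taken from the other groups.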

Other observations

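The genes below were chosen after their values were seen, from those whose agonist and vehicle livers stood apart by at least 2-fold. Meg3 and Rian, non-coding RNAs of the imprinted Dlk1-Dio3 region, were high together. Meg3 stood at 39.4 and 131 CPM in WT agonist livers, against 5.41 and 5.66 CPM in WT vehicle livers (log2 fold change 3.95, SE 0.92, edgeR adjusted p = 0.297). Rian stood at 29.4 and 112.5 CPM in WT agonist livers, against 3.32 and 3.19 CPM in WT vehicle livers (4.46, SE 1.06, adjusted p = 0.310). In livers labelled Arid1a KO the values went the other way, with log2 fold changes of -2.10 (SE 0.85) for Meg3 and -1.58 (SE 0.93) for Rian, and the differences between genotypes had edgeR adjusted p of 0.244 and 0.317.

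Ihh, the Indian hedgehog ligand, stood at 0.717 and 0.395 CPM in WT agonist livers, against 2.56 and 12.8 CPM in WT vehicle livers (-3.93, SE 0.72, edgeR adjusted p = 0.119). Without vehicle replicate 1 it passed the threshold (-4.64, adjusted p = 0.0217). Prom1, a surface protein of progenitor and bile duct cells, stood at 10.16 and 13.97 CPM in WT agonist livers, against 1.33 and 0.628 CPM in WT vehicle livers (3.72, SE 0.73, adjusted p = 0.139), while the summed cholangiocyte markers stood at 71.2 and 56.4 CPM in WT agonist livers and at 74.3 and 74.7 CPM in WT vehicle livers. The part of cholangiocytes in the Prom1 value was not tested.

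The remaining lists had medians between -0.60 and 0.51 on the log2 scale, and edgeR called 0 of their members. Over all genes, 14.2% had both WT agonist livers above and 14.2% below both WT vehicle livers. The counts were 1 above and 7 below of 20 periportal genes, and in the same order for hepatocyte transcription factors (1 and 6 of 23), genes of amino acid and urea metabolism (1 and 6 of 29) and p53 targets (1 and 5 of 19). They were 6 above and 1 below of 30 genes of coagulation and complement, and in the same order for acute phase genes (5 and 1 of 23) and the unfolded protein response (5 and 1 of 24). Pericentral genes (5 and 3 of 19), genes of thyroid hormone handling (3 and 2 of 13), of the growth hormone axis (2 and 2 of 17), of the clock (0 and 3 of 23), of the interferon response (2 and 0 of 26) and major urinary proteins (1 and 0 of 22) were mostly in overlapping ranges, as were other members of family 2 of cytochrome P450 (4 and 2 of 18). At an unadjusted p under 0.05 these lists held at most 2 genes in a direction each, and DESeq2 called 1 rising and 1 falling gene of the other family 2 members, 1 rising gene of thyroid hormone handling and 0 on the others.

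Among cell type lists, macrophage markers had a median log2 fold change of 0.51 with overlapping livers, and cholangiocyte markers -0.45, with 1 of 7 above and 3 below. Erythroid markers summed to 290.3 and 261 CPM in WT agonist livers and to 407 and 247 CPM in WT vehicle livers, and neutrophil markers to 8.13 and 3.43 CPM in WT agonist livers and to 5.98 and 1.21 CPM in WT vehicle livers.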
